A study of Mus musculus with 16 samples.

Results

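Metabotropic glutamate receptors were followed in the hippocampus of *Mef2c*-het and wild-type (WT) mice, newborn and juvenile. A list of 6 receptor genes was set, *Grm2*, *Grm3*, *Grm4*, *Grm5*, *Grm7* and *Grm8*, and every probe of the array table that carries a listed symbol, or an alias with the same Entrez gene number, was taken. This gave 4 of the 25697 probes, 1 each for *Grm3*, *Grm4*, *Grm7* and *Grm8*. *Grm2* and *Grm5* matched no probe and were not analysed here. RNA from hippocampus was hybridized to 16 Illumina MouseRef-8 v2 beadchip arrays, on which beads carrying a probe for a transcript are read as fluorescence. There were 4 arrays in each of 4 groups, *Mef2c*-het and WT at postnatal day (P) 1 and *Mef2c*-het and WT at P30. The *Mef2c*-het mice carry 1 copy of a conventional allele lacking the second exon of *Mef2c* and 1 WT copy, the WT mice are littermates from the same crosses, and all mice are on the C57BL/6J background. The labels call the heterozygotes KO, and the deletion, being conventional, is carried by every cell type. No sex, litter or chip is given, and the sources used here do not say for P1 how tissue was collected, so the p-values measure only the spread between these arrays.

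Metabotropic receptors bind glutamate and signal through G proteins rather than through an ion pore. *Grm5* encodes the receptor of the list that couples to Gq and phospholipase C, whereas the others couple to Gi/o proteins, which lower cyclic AMP and act on ion channels. *Grm2* and *Grm3* form one pharmacological group, and *Grm4*, *Grm7* and *Grm8* another, found largely on presynaptic terminals where they limit transmitter release. In the hippocampus the *Grm7* protein is known for its place in presynaptic active zones, and *Grm3* for its expression in glia as well as neurons.

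The upstream sequences of *Grm7* and *Grm8* are shown because these were the receptors whose signals differed with age. They come from RefSeq on GRCm38.p6 and run 5′ to 3′ in lower case, with a GC box (GGGCGG, on either strand) in capitals. The *Grm7* stretch lies on the plus strand at chr6:110645262-110645348, ahead of the annotated gene. The *Grm8* stretch lies on the minus strand at chr6:28135147-28135396, ahead of the first of its 3 listed starts.
Grm7: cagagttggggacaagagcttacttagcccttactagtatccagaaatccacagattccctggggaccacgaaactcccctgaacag
Grm8: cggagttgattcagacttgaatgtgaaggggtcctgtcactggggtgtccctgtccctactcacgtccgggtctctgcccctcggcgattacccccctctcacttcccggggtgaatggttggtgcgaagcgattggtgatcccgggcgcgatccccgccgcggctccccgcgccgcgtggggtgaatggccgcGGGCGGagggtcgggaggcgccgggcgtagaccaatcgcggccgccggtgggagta
Windows of 250 bases before a start were at hand for 7 starts of 4 receptors, *Grm2*, *Grm3*, *Grm7* and *Grm8*. Bases in the first window of each gene were 62% G or C for *Grm7* and 68.4% for *Grm8*. None of the 7 windows held the pattern CTA, any 4 bases, then TAG, which was used here for the MEF2 site. That pattern was held by 3.2% of 32851 RefSeq windows of the same length, and other forms of the MEF2 site were not searched. Likewise, none of the 7 windows held the cyclic AMP response element TGACGTCA (1.55% of windows) or the E-box CAGCTG (13%), on either strand. A GC box was found in both *Grm7* windows, the *Grm2* and *Grm3* windows and the first *Grm8* window, against 32.7% of all windows. The *Grm7* windows overlap and share 1 box. That box lies past the printed stretch and inside the annotated gene, which begins ahead of both listed starts. These matches describe the letters of the windows alone.

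The median number of beads behind a signal was 36 to 39 per array, and 12638 to 14150 probes were detected, meaning a p below 0.05 against the negative control beads. Arrays of an age fell into a larger cluster and a smaller one with a higher background, and the smaller held WT replicates 6 and 7 and *Mef2c*-het replicate 7 at P30 and replicate 8 of both genotypes at P1. *Mef2c* had 2 probes above background, and whether either lies in the deleted exon is not given in the sources used here, so that they may not check the genotype. On the brighter one, the log2 signal at P30 was 9.20, 9.76, 8.97 and 9.92 on the *Mef2c*-het arrays and 9.61, 9.80, 9.80 and 9.62 on the WT arrays. The groups overlapped, with a log2 fold change of -0.25 (SE 0.17, limma adjusted p = 0.994). On the other probe the change was -0.29 (SE 0.16, limma adjusted p = 0.994). At P1, *Mef2c*-het minus WT was -0.01 (SE 0.17) on the brighter probe and 0.07 (SE 0.16) on the other, and neither was called. The remaining *Mef2c* probe was detected on 2 of 16 arrays and was not tested, with group means between 7.21 and 7.27.

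*Grm7* and *Grm8* rose between P1 and P30 in WT and in *Mef2c*-het hippocampus, by 1.25- to 1.43-fold on signals without background correction. *Grm4* was near background and passed no test, and *Grm3* was not well above background on any array. No receptor probe passed the test for genotype at either age. Of the 4 probes, 3 were detected on 4 or more of the 16 arrays and were tested among 14777 probes. Values are log2 signals after quantile normalization of the 16 arrays, and fold changes are differences of group means on that scale.

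*Grm7* was detected on 16 of 16 arrays. In WT at P1 the log2 signal of its probe (ILMN_2872782) was 7.80, 7.44, 7.64 and 7.76, and in *Mef2c*-het at P1 it was 7.56, 7.74, 7.73 and 7.81. In WT at P30 it was 8.08, 8.16, 8.15 and 8.30, and in *Mef2c*-het at P30 it was 8.15, 8.14, 8.04 and 8.32. All P30 arrays were above all P1 arrays, the lowest at P30 by 0.23 above the highest at P1, while the genotypes of an age overlapped. In order, the group means were 7.66 ± 0.16 in WT at P1, 7.71 ± 0.11 in *Mef2c*-het at P1, 8.16 ± 0.11 in *Mef2c*-het at P30 and 8.17 ± 0.091 in WT at P30 (SD, n = 4 each), so neighbours within an age differed by less than their SD. From P1 to P30 the log2 signal rose by 0.51 in WT, or 1.43-fold (SE 0.085, 95% interval 0.33 to 0.69, limma adjusted p = 6.14e-05). In *Mef2c*-het the rise was 0.45, or 1.37-fold (SE 0.085, 95% interval 0.27 to 0.63, limma adjusted p = 0.000214). Age moved much of the transcriptome, since 59.7% of the tested probes were called in WT (28% higher, 31.7% lower) and 58.3% in *Mef2c*-het (26.9% higher, 31.4% lower), and 2 of the 3 receptor probes were called in each genotype, both higher. The P1 and P30 arrays did not overlap for these 2 probes in either genotype, as for 53.1% of tested probes in WT and 52.5% in *Mef2c*-het. A larger change in either direction was seen for 32.1% of tested probes in WT, which places *Grm7* inside the bulk of age differences.

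The size of the *Grm7* rise depended on how the array background was treated. Its signal at P1 was a median of 1.64 times the 5th percentile of the array in WT and 1.66 times in *Mef2c*-het, and at P30 2.16 and 2.25 times. The P1 signals were thus nearer to background than the P30 signals. After normexp correction, which subtracts an estimate of background, the rise was 1.08 on the log2 scale in WT, or 2.11-fold (95% interval 0.68 to 1.48, limma adjusted p = 0.000132), and 0.92 in *Mef2c*-het, or 1.89-fold (95% interval 0.52 to 1.32, adjusted p = 0.000568). The standard error over the beads of 1 array was 0.041 to 0.076 for this probe on the log2 scale, below the SDs between arrays of 0.091 to 0.16. On the arrays of the larger clusters alone the rise was 0.53 in WT and 0.46 in *Mef2c*-het, and on those of the smaller clusters, which held too few arrays for a test, it was 0.47 and 0.50.

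*Grm8* was also detected on all 16 arrays. In WT at P1 the log2 signal of its probe (ILMN_2711523) was 7.36, 7.33, 7.47 and 7.49, and in *Mef2c*-het at P1 it was 7.44, 7.41, 7.40 and 7.37. In WT at P30 it was 7.89, 7.71, 7.71 and 7.62, and in *Mef2c*-het at P30 it was 7.85, 7.75, 7.85 and 7.86. Again the P30 arrays lay above the P1 arrays, here by 0.13 at the closest, where WT replicate 7 at P30 (7.62) approached WT replicate 8 at P1 (7.49). The means were 7.41 ± 0.082 in WT and 7.41 ± 0.027 in *Mef2c*-het at P1, then 7.73 ± 0.11 in WT and 7.83 ± 0.05 in *Mef2c*-het at P30 (SD, n = 4 each), and the 2 P30 groups overlapped. *Grm8* rose with age by 0.32 in WT, or 1.25-fold (SE 0.061, 95% interval 0.19 to 0.45, limma adjusted p = 0.000269), and by 0.42 in *Mef2c*-het, or 1.34-fold (SE 0.061, 95% interval 0.29 to 0.55, limma adjusted p = 1.63e-05). In WT 48% of the tested probes had a larger age difference. After normexp correction the rises were 0.89 in WT, or 1.85-fold (95% interval 0.59 to 1.19, limma adjusted p = 5.35e-05), and 1.13 in *Mef2c*-het, or 2.18-fold (95% interval 0.83 to 1.43, adjusted p = 4.66e-06).

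Within the array clusters, the *Grm8* rise in WT was 0.45 in the larger clusters and 0.17 in the smaller, with 1 array at P1 and 2 at P30, and the *Mef2c*-het rise was 0.44 and 0.48. The difference between clusters was not tested, and here too only the larger clusters were normalized on their own. Median signals were 1.33 and 1.34 times the 5th percentile of the array at P1 in WT and *Mef2c*-het, and 1.60 and 1.79 times at P30. The *Grm8* signal was therefore close to background at P1, and the error over the beads, 0.045 to 0.082 on the log2 scale, was of the size of the SDs between arrays, 0.027 to 0.11.

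**Figure D1:**
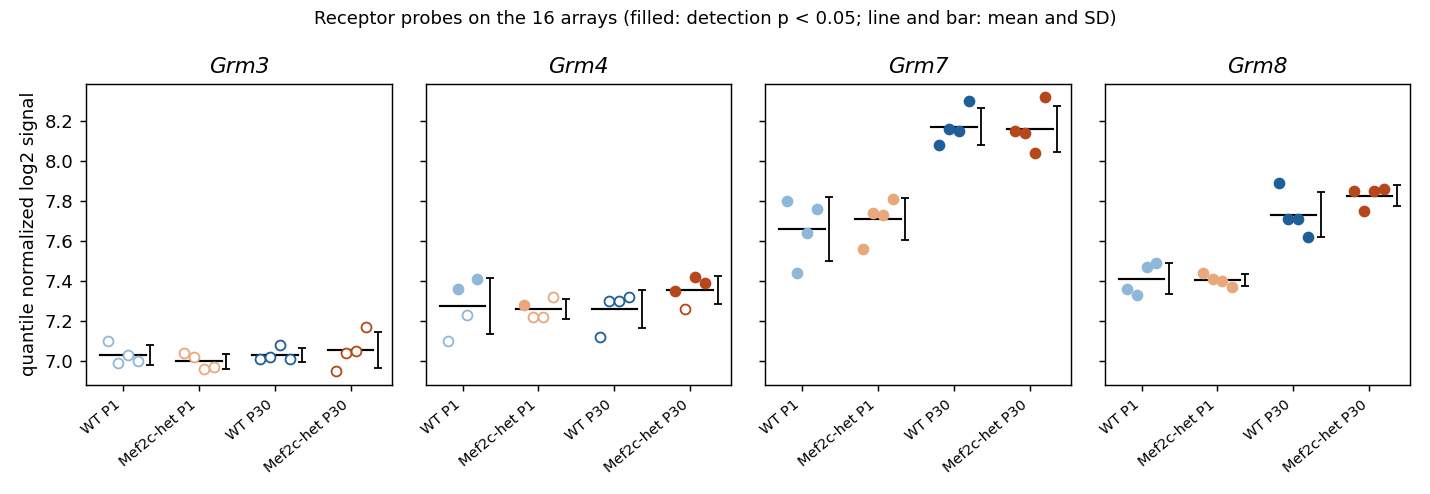
Quantile normalized log2 signal (y axis) of the probes of *Grm3*, *Grm4*, *Grm7* and *Grm8* on each of the 16 arrays by group (x axis), filled where the detection p was under 0.05, with the group mean as a line and the SD as a bar. *Grm7* and *Grm8* lie higher on every P30 array than on any P1 array, by at least 0.23 and 0.13, while the open points of *Grm3* stay between 6.95 and 7.17.

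*Grm4*, whose product is a presynaptic receptor best known from the cerebellum, was detected on 6 of 16 arrays. The log2 signal of its probe (ILMN_3162152) was 7.10, 7.36, 7.23 and 7.41 in WT at P1 and between 7.22 and 7.32 in *Mef2c*-het at P1. At P30 it was 7.12, 7.30, 7.30 and 7.32 in WT and 7.35, 7.26, 7.42 and 7.39 in *Mef2c*-het. Detection was met on 2, 1, 0 and 3 arrays of these groups in turn, and all groups overlapped. WT at P30 was thus not well above background and sets only a floor, for each array the greater of the probe's signal and the lowest signal of a detected probe. The *Mef2c*-het mean was at least 1.02-fold over that floor, which accounts for detection and not for the spread between arrays. The measured means were 7.26 ± 0.093 in WT and 7.35 ± 0.071 in *Mef2c*-het (SD, n = 4 each), a difference of 0.09 (SE 0.071, limma adjusted p = 0.994) with a 95% interval of -0.06 to 0.24, so no difference was shown. Between the ages in WT no fold is given, since WT at P30 was below detection, and the measured means were 7.27 and 7.26 (limma adjusted p = 0.88). In *Mef2c*-het the log2 fold change with age was 0.09 (95% interval -0.06 to 0.24, limma adjusted p = 0.295).

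*Grm3* was not well above background on any of the 16 arrays, with detection p between 0.219 and 0.93, and was not tested. Its probe (ILMN_1238513) ran from 6.99 to 7.10 in WT and from 6.96 to 7.04 in *Mef2c*-het at P1, and from 7.01 to 7.08 in WT and from 6.95 to 7.17 in *Mef2c*-het at P30. On each array its intensity was 0.985 to 1.13 times the 5th percentile of all probes. The flat values are those of a signal near background and give no order of the groups.

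For genotype, 0 of the 3 tested receptor probes were called at P30, at P1 or for the change of the genotype effect with age by limma, and 0 had an unadjusted p under 0.05. Over all tested probes 0.00677% were called at P30, 0.0135% at P1 and 0% for the difference, and 2.84%, 2.28% and 2.96% had an unadjusted p under 0.05. The genotypes overlapped for all 3 receptor probes at both ages, while they did not for 1.89% of tested probes at P30 and 1.42% at P1. At P30, *Mef2c*-het minus WT was -0.01 for *Grm7* (95% interval -0.19 to 0.17, limma adjusted p = 0.994) and 0.10 for *Grm8* (-0.03 to 0.23, adjusted p = 0.994). At P1 it was 0.05 for *Grm7* (-0.13 to 0.23, limma adjusted p = 1), -0.01 for *Grm8* (-0.14 to 0.12) and -0.01 for *Grm4* (-0.16 to 0.14). *Grm7* thus lay closest to 0 at P30, with the widest interval. The genotype effect at P30 exceeded that at P1 by -0.06 for *Grm7* (SE 0.12, 95% interval -0.32 to 0.19), 0.10 for *Grm8* (SE 0.087, -0.08 to 0.29) and 0.11 for *Grm4* (SE 0.10, -0.11 to 0.32), each with a limma adjusted p of 0.998. After normexp correction the P30 difference widened to 0.22 for *Grm8* (-0.08 to 0.52) and 0.30 for *Grm4* (-0.13 to 0.73), still with intervals that include 0.

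**Figure D2:**
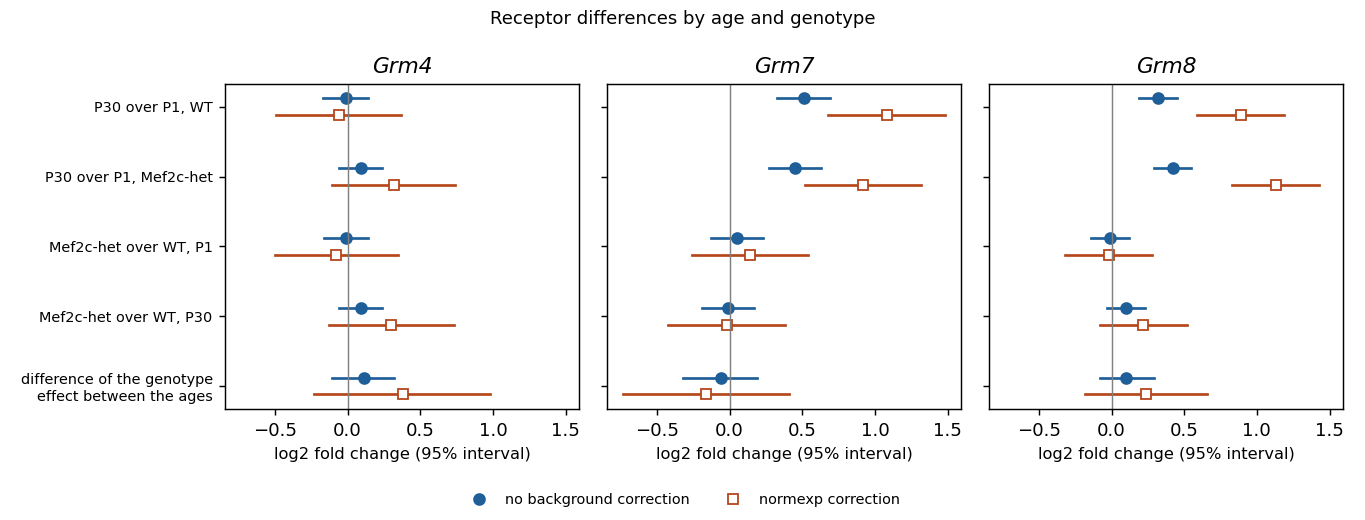
Log2 fold changes (x axis, with 95% intervals as lines) of the tested receptors for each age and genotype comparison (y axis), without background correction (filled circles) and after normexp correction (open squares). The intervals of *Grm7* and *Grm8* lie above 0 for age in both genotypes, and every genotype interval includes 0.

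The genes whose signals ran most like those of the receptors were found as the smallest root mean square difference over the 16 arrays, after subtracting each probe's mean, among 10802 genes. For *Grm7* these were *Pnma3*, *Pik3c3*, a lipid kinase of autophagy and endosomal traffic, and *Wnt4*, a secreted signalling protein, at differences of 0.061, 0.0738 and 0.0783 on the log2 scale. For *Grm8* they were *Chmp1b*, a membrane remodelling protein, *Sdsl* and *Papss2*, an enzyme that makes the sulfate donor, at 0.0662, 0.0732 and 0.0743. All rose with age by similar amounts, the *Grm7* neighbours by 0.42, 0.47 and 0.47 in WT and the *Grm8* neighbours by 0.33, 0.31 and 0.34. These genes were chosen by likeness on the same arrays, so a similar rise with age follows from the choice. This likeness is a description over arrays that share the age groups.

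The genes that work with these receptors were taken from a list of 56, of which 51 had a probe and 43 were tested, each by its brightest probe. In WT, 27 of the 43 were higher at P30, 8 were lower and 8 were not called, with a median log2 fold change of 0.60 against -0.03 over all tested probes. In *Mef2c*-het, 27 were higher, 7 lower and 9 not called, with a median of 0.44 against -0.02. Over all tested probes, 28% were called higher and 31.7% lower in WT, and 26.9% and 31.4% in *Mef2c*-het. The same shares stand beside the counts by role that follow. The list was written with earlier results of these data known, so its counts and medians are descriptions.

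Among the binding partners and scaffolds, 7 of 9 were higher in WT at P30 and 2 were lower. *Homer1*, which tethers Gq-coupled metabotropic receptors to the postsynaptic scaffold, rose by 0.66 in WT (SE 0.079, limma adjusted p = 1.91e-06) and 0.44 in *Mef2c*-het (adjusted p = 0.000154) on its brightest probe. A second *Homer1* probe rose by 0.67 and 0.55, a further one by 0.23 in WT (limma adjusted p = 0.0131) with 0.05 in *Mef2c*-het (adjusted p = 0.619), and the last was not detected on any array. *Ncdn*, a cytoplasmic protein that binds metabotropic receptors, rose by 2.80 and 2.79, and its other probes rose in WT by 2.93, 3.03 and 0.58. *Grasp*, a scaffold for their traffic, rose by 1.93 and 1.95, and on its other probe by 0.45 in WT. *Pick1*, which binds the tail of the *Grm7* protein, fell in WT by 0.40 (limma adjusted p = 0.00475), while in *Mef2c*-het its value was -0.16 (adjusted p = 0.227) and other *Pick1* probes in WT were at -0.04 and -0.14 without passing. The difference between the genotypes in this age effect was itself not called (0.24, limma adjusted p = 0.998). *Grip1*, another PDZ scaffold, fell by 0.35 in WT and by 0.62 in *Mef2c*-het.

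Along the Gq arm, 4 of 7 genes were higher in WT at P30 and 3 were not called. *Dgkz*, which removes diacylglycerol, rose by 2.04 in WT and 1.97 in *Mef2c*-het. Along the Gi/o arm, through which *Grm4*, *Grm7* and *Grm8* signal, 5 of 9 were higher, 2 were lower and 2 were not called. The adenylyl cyclase genes *Adcy2* and *Adcy8* rose by 1.96 and 1.37 in WT and by 1.89 and 1.39 in *Mef2c*-het. *Gnb1*, a G protein beta subunit, fell by 0.80 and 0.88, and *Gnai2*, an inhibitory alpha subunit, by 0.56 and 0.50. Of the genes that end the signal, 5 of 8 were higher and 1 was lower, with *Rgs4*, which speeds GTP hydrolysis, up by 1.33 and 1.09, *Grk2*, a receptor kinase, up by 0.70 and 0.45, and *Siah1a*, a ubiquitin ligase, down at -1.15 and -0.86.

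Genes of receptor-driven synaptic depression and local translation were split, 2 of 5 higher and 2 lower. *Arc*, which promotes internalization of AMPA receptors, rose by 3.57 in WT and 3.39 in *Mef2c*-het, and *Mtor*, a kinase of translation control, by 0.60 and 0.53. *Eef2k*, the kinase of elongation factor 2, fell by 0.76 and 0.81, and *Map1b*, a microtubule-binding protein, fell by 0.67 and 0.83. Another *Map1b* probe in WT was at -0.46 (limma adjusted p = 0.000578), although a further pair, at -0.17 and -0.03, did not pass. For ligand supply and clearance, 4 of 5 were higher and 1 was lower. *Slc1a2*, the main astrocytic glutamate transporter, rose by 3.08 and 3.01 on its brightest probe. Other tested *Slc1a2* probes in WT were at 2.46 (limma adjusted p = 4.7e-14) and 0.14 (limma adjusted p = 0.357). *Slc1a1*, a neuronal transporter, rose by 1.37 and 1.23, with 0.63 in WT on its other probe. *Rimkla*, which makes the peptide N-acetylaspartylglutamate, a proposed agonist of the *Grm3* receptor, fell by 1.00 and 1.02. For the brightest probe of each of these named genes except *Pick1* in *Mef2c*-het, the limma adjusted p was at most 0.0491 in both genotypes.

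**Figure D3:**
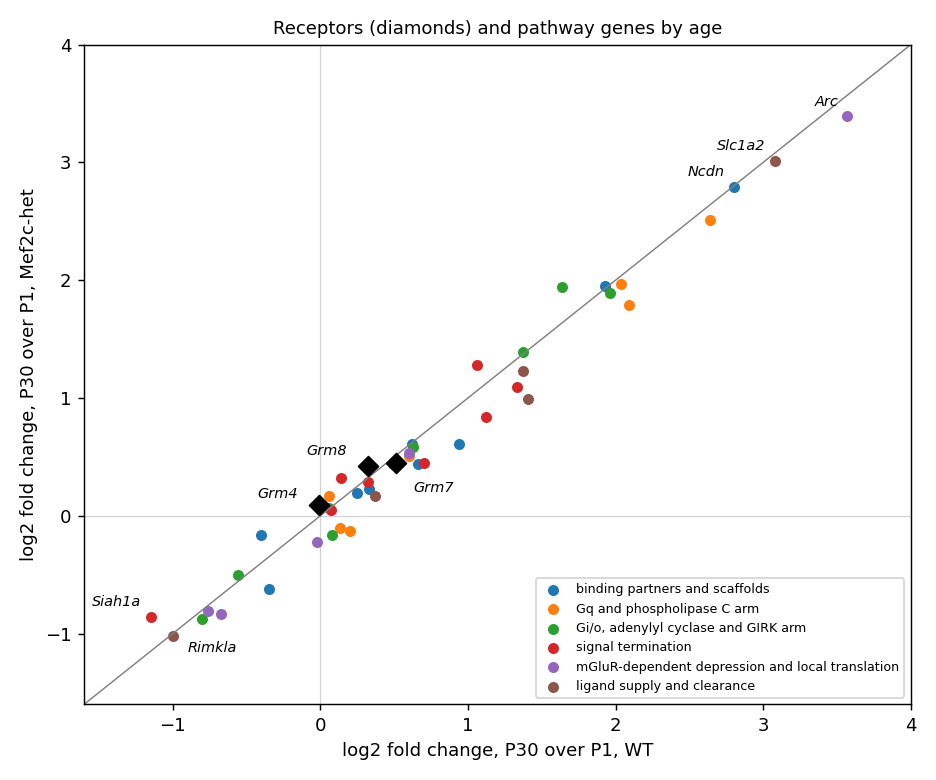
Log2 fold change from P1 to P30 in *Mef2c*-het (y axis) against that in WT (x axis) for the tested receptors (black diamonds) and the 43 tested pathway genes coloured by role, with the line of equal change. *Grm7* and *Grm8* sit at 0.51 and 0.32 in WT, among values of the list that run from -1.15 for *Siah1a* to 3.57 for *Arc*.

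By genotype, 0 of the 43 pathway genes were called by limma at P30, at P1 or for the difference between the ages. An unadjusted p under 0.05 was met by 3 genes at P30, *Elfn2* (-0.25, unadjusted p from limma 0.0421), *Grk2* (-0.16, 0.0452) and *Gnb1* (-0.21, 0.0473), and at P1 by *Siah1a* (-0.28, 0.0104). For the change of the genotype effect with age it was met by *Grk2* (-0.25, 0.0277) and *Slc1a3* (-0.21, 0.0479). These genes were named here after their values were seen, and 2.84%, 2.28% and 2.96% of all tested probes met the same threshold in the 3 comparisons. The medians were -0.05 at P30 and 0.02 at P1, against -0.01 and 0.00 over all tested probes. *Homer1* itself was at -0.06 at P30 and 0.17 at P1 (limma adjusted p = 0.994 and 1).

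Signals of cell type markers moved with age beside the receptor signals. In bulk tissue, fewer cells of a type and less RNA per cell cannot be told apart. Over all tested probes in WT, 28% were called higher and 31.7% lower at P30. In WT at P30, 7 of 7 oligodendrocyte markers were higher (median log2 fold change 5.20), 6 of 7 astrocyte markers (0.56), 6 of 7 microglia markers (0.60), 5 of 5 interneuron markers (1.27) and 3 of 4 oligodendrocyte precursor markers (0.37). Of the hippocampal excitatory neuron markers 4 of 7 were higher and 2 lower (2.45), and of general neuron markers 2 of 3 were higher and 1 lower (1.23). All 4 markers of proliferating cells were lower (-2.11), 2 of 3 blood markers were lower (-0.36), 1 of 4 choroid plexus markers was higher (-1.05), and of the thalamus markers 3 of 4 were higher and 1 lower (0.38). In *Mef2c*-het, where 26.9% of tested probes were called higher and 31.4% lower, 7 of 7 microglia markers were higher (0.66). Of excitatory markers 4 were higher and 3 lower. Precursor markers were higher for 1 of 4 (0.14) and thalamus markers for 2 of 4 (0.21). Proliferation markers were lower for 3 of 4 (-2.15), and 0 of 3 blood markers were called. The oligodendrocyte, astrocyte, interneuron, general neuron and choroid plexus lists gave the same counts as in WT. The mean log2 signal over the excitatory neuron list was 8.89 to 9.36 on the P1 arrays and 10.59 to 10.73 on the P30 arrays. For the astrocyte list it was 10.07 to 10.37 and 10.92 to 11.11. Of the excitatory markers in WT, the 4 called higher included *Camk2a* (3.93) and *Slc17a7* (3.40). The 2 called lower were *Prox1* (-0.71) and *Neurod6* (-0.24). The oligodendrocyte list ran from 7.83 to 8.17 at P1 and from 13.15 to 13.39 at P30, and that of proliferating cells from 8.92 to 9.26 and from 7.17 to 7.45. The part of these changes in the *Grm7* and *Grm8* rises was not tested. By genotype no marker was called by limma at either age. An unadjusted p under 0.05 was met at P30 by *C1qa* (0.26), *C1qb* (0.26), *Tcf7l2* (-0.18) and *Pcna* (0.36). At P1 it was met by *Cldn11* (0.41), *Olig2* (0.18), *Tyrobp* (-0.35) and *Trem2* (-0.40). These markers were named after their values were seen, and 2.84% of all tested probes met that threshold at P30 and 2.28% at P1.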

How the data were processed

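The authors deposited, per probe and array, a linear mean bead intensity without normalization, its detection p-value, the standard error over the beads (also an intensity) and the bead number. Background subtraction is not given in the sources used here, and the submitters' processing notes name lumi and limma. RNA of the P30 tissue came from frozen hippocampi. Here, intensities were log2 transformed and quantile normalized over the 16 arrays, so that the 4 groups share 1 scale, and probes detected (p below 0.05) on 4 or more arrays were fitted with limma 3.58.1 in R 4.3.3 (a mean per group, eBayes, two-sided, Benjamini-Hochberg over 14777 probes, called under 0.05). Names came from RefSeq (GRCm38.p6) for 25375 of 25697 probes. No column of another series was present. The receptors, pathway roles and marker lists were chosen with earlier results of these data known.

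Named are all receptor, *Mef2c* and *Homer1* probes, the 2 higher and 2 lower pathway genes of smallest p per role in the WT age comparison, and the 3 genes most like each receptor called there. A gene that this rule names is not reported here. Alternatives were normexp (offset 16), median scaling, cyclic loess, other filters, 1 probe per gene, other variance models, arrays of one age or genotype alone, a replicate block, array clusters and leaving out each array. Intervals are at 95%, and the 4 arrays per group limit the precision.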

Additional observations from a re-analysis of the deposited data

Results flagged for a closer look

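Among 148 groups of 4 arrays over 37 probes, 10 held an array that stood far apart, and chance alone flags about 1 in 20. The value given is the gap to the nearest array divided by the range of the group. For the receptors these were *Grm8* in *Mef2c*-het at P30 (0.964), where replicate 5 was at 7.75 and the nearest at 7.85, *Grm4* in WT at P30 (0.869), where replicate 2 was at 7.12 and the nearest at 7.30, and *Grm3* in WT at P30 (0.861), where replicate 6 was at 7.08 and the nearest at 7.02. For *Grm3* and *Grm4* these signals were not well above background.

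*Homer1* was flagged in WT at P1 (0.835, replicate 4 at 10.46 and nearest 10.65) and in *Mef2c*-het at P30 (0.863, replicate 3 at 11.07 and nearest 11.26). *Slc1a1* was flagged in WT at P1 (0.829, replicate 4 at 10.66 and nearest 11.11) and in WT at P30 (0.869, replicate 3 at 12.21 and nearest 12.45). *Grk2* was flagged in *Mef2c*-het at P1 (0.973, replicate 8 at 12.71 and nearest 12.63), *Map1b* in WT at P1 (0.884, replicate 5 at 11.21 and nearest 10.86) and *Pik3c3* in *Mef2c*-het at P30 (0.894, replicate 7 at 10.94 and nearest 10.73).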

How the results depend on the processing

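Of the 3 tested receptor probes, 0 were called for genotype at P30, at P1 and for the difference between the ages, and 2 for age in WT and in *Mef2c*-het, under every alternative that was run. Leaving out each array in turn gave 0 to 0 and 2 to 2. The age rise of *Grm7* ranged from 0.44 to 1.08 in WT (limma adjusted p 1.16e-05 to 0.000784) and from 0.40 to 0.92 in *Mef2c*-het (1.76e-05 to 0.00109), and that of *Grm8* from 0.26 to 0.89 (5.35e-05 to 0.00438) and from 0.41 to 1.13 (4.66e-06 to 0.000437), each highest with normexp. Over all probes, 0 to 3 were called for genotype at either age. For age, in the settings that tested 14777 probes, 8037 to 9644 were called in WT and 7808 to 9609 in *Mef2c*-het. The 2 receptor calls for age stand beside these counts. Without a filter 4 receptor probes were tested, and 8905 and 8695 of 25697 probes were called for age. *Grm4* was not tested under the stricter detection filter, nor with 8 arrays alone for genotype at either age and for age in WT. The receptor counts of those settings rest on 2 probes.

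Differences near 0 turned sign in some settings, none past the threshold, and the cause was not tested. *Grm7* at P30 was 0.02 with median scaling, 0.01 with cyclic loess and 0.03 with the cluster block. *Grm8* at P1 was 0 with median scaling, 0.01 with cyclic loess and 0.03 in the larger cluster, and its change of the genotype effect with age was -0.01 in the larger cluster. *Grm4* with age in WT was 0 with median scaling, and at P1 between genotypes 0.01 in the larger cluster. Leaving out each array in turn gave -0.06 to 0.03 for *Grm7* at P30, -0.02 to 0.10 at P1 and -0.11 to 0.01 for the change with age. It gave -0.04 to 0.02 for *Grm8* at P1, and for *Grm4* -0.07 to 0.03 at P1 and -0.07 to 0.03 with age in WT.

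Correlations of deviations between arrays of the genotypes that share a replicate number were 0.0909, 0.397 and 0.82 at P1 and 0.17, -0.522 and 0.697 at P30, not all over 0.1, so pairing by number was not established. The pairs at 0.82 and 0.697 lie in the smaller clusters. With age and replicate number as a block, on the 12 arrays that share both, 0 probes of all those tested were called for genotype. The same held without the block on these arrays, and with it *Grm8* at P1 was 0.01. A random block took the number alone, so that numbers 2 and 5 each joined a P1 and a P30 array. With it the 2 age calls of each genotype held, *Grm7* at 0.51 and 0.44 and *Grm8* at 0.31 and 0.43.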
